A study of Mus musculus with 24 samples.

Results

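The expression of 7 adipokine and arxes genes, 7 of the 9262 loci in the RNA-Seq table, was followed across 24 libraries of 3T3-L1 cells. They were chosen by gene symbol. Adipoq (adiponectin), Retn (resistin) and Cfd (adipsin) encode proteins that fat cells secrete. Angptl4 encodes a secreted inhibitor of lipoprotein lipase, Nampt encodes an enzyme of NAD synthesis that is also found outside cells, and Arxes1 and Arxes2 are a pair of X-linked genes with the same coding sequence. 3T3-L1 is an established mouse line of pre-adipocytes that turn into fat cells when given hormones. All groups came from this 1 line in medium with 25 mM glucose. Before induction the cells were transfected with siRNA, either a control (siCon) or one directed at 14-3-3ζ (si14-3-3ζ), a phosphoserine-binding adaptor protein. The inducing cocktail, added 24 h later, held insulin (172 nM), the phosphodiesterase inhibitor IBMX (500 µM) and the glucocorticoid dexamethasone (500 nM). RNA was measured at 0, 24 and 48 h of induction, where 0 h stands for cells not yet given the cocktail. Each of the 6 groups held 4 libraries. The methods of the study speak of independent experiments for its data in general but do not say it of these 4 libraries, so the p-values reflect only how these libraries varied, and that variation may be technical.

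Adipokines are proteins that adipose tissue releases into the blood or the surrounding tissue. Some of their genes, Adipoq, Retn and Cfd among them, are largely silent in pre-adipocytes. These are switched on as PPARγ and C/EBPα, the transcription factors that drive fat cell formation, become active. Adiponectin raises the sensitivity of liver and muscle to insulin, whereas resistin impairs insulin action in mice. Arxes1 and Arxes2 arose as retrotransposed copies of Spcs3, a subunit of the signal peptidase complex, and are known to be needed for 3T3-L1 adipogenesis.

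The deposited values are FPKM (fragments per kilobase of transcript, adjusted for sequencing depth), so that levels of different genes can be compared per length. Their sums ran from 474548 to 642146 per library, and libraries of a group correlated at 0.974 to 0.993 across loci. The table holds no read counts, and so gives no counting error for any single value. Ywhaz, the gene of 14-3-3ζ, averaged 166, 226 and 260 FPKM at 0, 24 and 48 h in siCon cells and 29.5, 37.6 and 39.6 FPKM in si14-3-3ζ cells. Of the markers chosen for pre-adipocytes 6 of 7 were listed, and of those for adipocytes 6 of 6. Only Cd14 and Lyz2 of 7 macrophage markers were listed, with a summed level between 5.25 and 10.1 FPKM at 48 h, and no marker of endothelium or skeletal muscle was.

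At 48 h, Adipoq, Retn, Cfd, Angptl4 and Arxes2 were called lower in si14-3-3ζ cells, and Nampt was not called. Arxes1 was called lower too, but it passed the filter on low values (1 FPKM in 4 libraries) only through siCon cells at 48 h, the group where it is high, so that its call was bound to the filter and is left out of the counts read here. Outside that group Cfd reached 1 FPKM in 4 libraries, the fewest that pass. Called here means a Benjamini-Hochberg adjusted p under 0.05 in limma, fitted to log2(FPKM + 1) over the 9251 loci tested. The 5 genes called lower of the 6 other than Arxes1 stand beside 22.8% of all these loci called lower. In the same comparison 23.3% were called higher. In 4 of these 6 every si14-3-3ζ library lay below every siCon library, which held for 18.1% of all loci. The median log2 fold change of the 6 genes was -2.25, beside 0.01 over all loci tested. At 24 h 1 of the 7 genes, Angptl4, was called lower, beside 14.0% of all loci. At 0 h none was called in either direction, none had an unadjusted p under 0.05, and none was called under any alternative analysis, beside 17.3% of all loci called. In bulk RNA, fewer differentiated cells and less RNA per cell cannot be told apart.

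**Figure D1:**
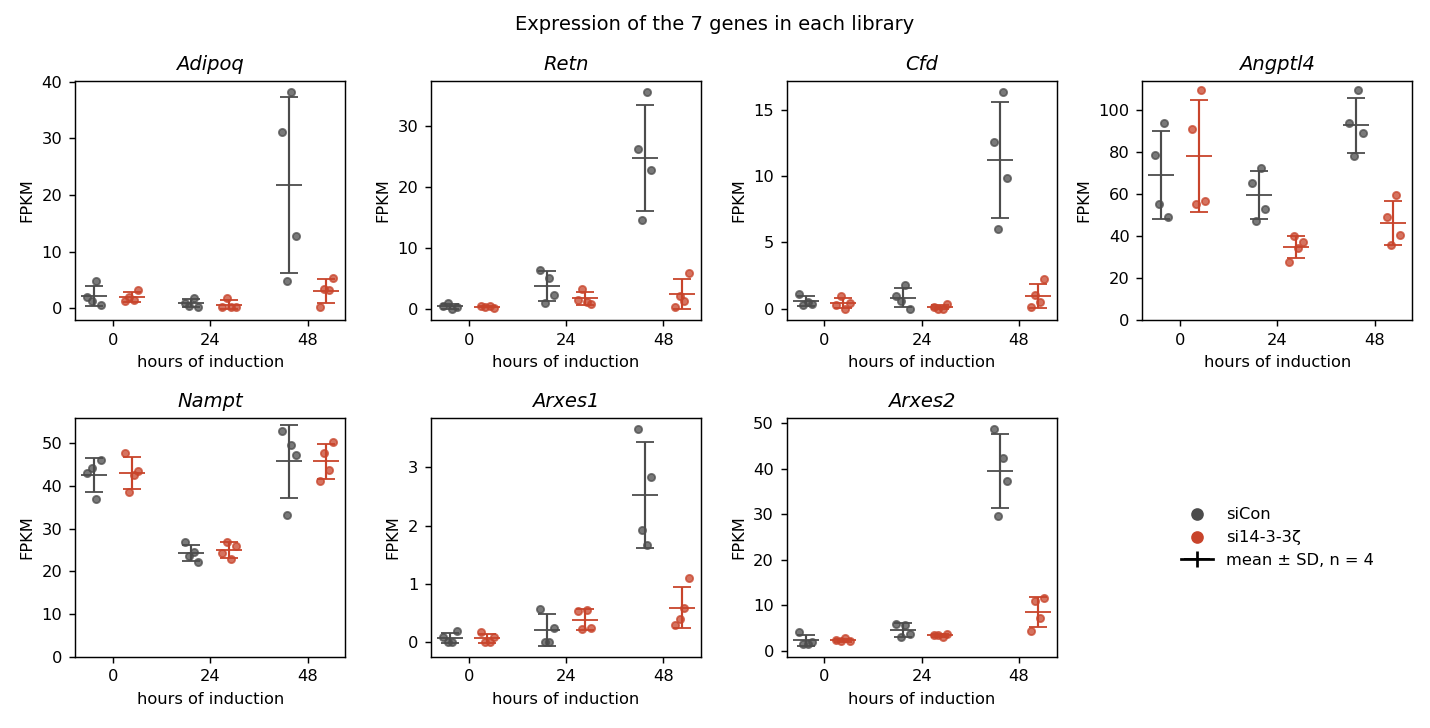
FPKM (linear axes) of each gene against hours of induction, with siCon libraries in grey and si14-3-3ζ libraries in red. Points are libraries and bars are mean ± SD (n = 4). By 48 h the siCon libraries stand above the si14-3-3ζ libraries for 5 genes, those of Adipoq overlap in 1 library of each group, and those of Nampt cover a shared range.

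Adipoq (XLOC_011866) lies on chromosome 16, at 23146609 to 23158101 on the plus strand of NCBIM37, with 3 exons. Adiponectin is assembled in the endoplasmic reticulum into trimers and larger complexes before release. In siCon cells at 48 h the 4 libraries held 31.1, 4.84, 38.2 and 12.7 FPKM. The 4 si14-3-3ζ libraries at 48 h held 0.216, 3.33, 3.22 and 5.42 FPKM. The groups overlapped, because siCon replicate 2 lay under si14-3-3ζ replicate 4, and the siCon libraries spread over a range far wider than their lowest value.

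The means at 48 h were 21.7 ± 15.6 FPKM in siCon cells and 3.05 ± 2.14 FPKM in si14-3-3ζ cells (SD, n = 4). On the log2(FPKM + 1) scale, which understates the change of low genes, the difference was -2.37 (SE 0.52, adjusted p = 0.000897). Before induction the gene averaged 2.19 ± 1.82 FPKM in siCon and 2.04 ± 0.88 FPKM in si14-3-3ζ cells. At 24 h the averages were 0.881 ± 0.676 and 0.623 ± 0.784 FPKM. Neighbours in the order of these 4 lower groups overlapped, and none was called different from another in the same kind of cell or at the same time. In si14-3-3ζ cells Adipoq differed by -0.97 between 0 and 24 h (SE 0.52, adjusted p = 0.113), which was called as a fall with a pseudocount of 0.1 (-1.98, adjusted p = 0.0381) and in a fit of only the groups compared (adjusted p = 0.0137). From 0 to 48 h Adipoq rose in siCon cells by 2.64 (SE 0.52, adjusted p = 0.000118), whereas in si14-3-3ζ cells the change was 0.23 (SE 0.52, adjusted p = 0.723).

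The difference between these responses of Adipoq to induction was -2.42 (SE 0.74, adjusted p = 0.0268). That call depended on single libraries and was lost without siCon 0 h replicate 2 or 4 (adjusted p = 0.051 and 0.0613), siCon 48 h replicate 1 or 3 (0.0606 and 0.0687), si14-3-3ζ 0 h replicate 4 (0.0528) or si14-3-3ζ 48 h replicate 1 (0.058). The values without these libraries lay between -2.33 and -1.91. This call was also lost in a fit of only the groups compared (adjusted p = 0.0509) and with a pseudocount of 0.1 (adjusted p = 0.0608). Without si14-3-3ζ 48 h replicate 1, the rise of Adipoq from 24 to 48 h in si14-3-3ζ cells became called, at 1.70 (adjusted p = 0.017) instead of 1.19 (adjusted p = 0.109).

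The 250 bases before the RefSeq start of Adipoq are shown because 3 copies of the CCAAT box lie close to the start, given in capitals (chr16:23146286-23146535, plus strand, GRCm38.p6).
Adipoq: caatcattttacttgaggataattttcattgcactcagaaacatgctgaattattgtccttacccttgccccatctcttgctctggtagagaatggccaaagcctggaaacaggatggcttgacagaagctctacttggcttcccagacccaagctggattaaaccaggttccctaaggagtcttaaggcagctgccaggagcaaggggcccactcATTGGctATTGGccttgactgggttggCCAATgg
A copy reads CCAAT on the strand of the gene, with its first base 7 bases before the start, and the other 2 lie on the opposite strand, 27 and 34 bases before it. CCAAT on either strand was present in 37.4% of 32851 promoter windows of 300 bases (250 before to 50 after a start), so its presence alone is common. Windows of a chromosome that holds none of the genes followed here were left out of all such shares.

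The genes that receive and assemble adiponectin did not move as a group. Of 8 such genes, 7 were tested at 48 h, where 1 was higher and 3 were lower in si14-3-3ζ cells, with a median log2 difference of 0.05. This count, like those of the other gene lists at 48 h, stands beside 23.3% of all loci called higher and 22.8% called lower. Adipor2, a receptor, was lower at -1.42 (SE 0.17, adjusted p = 1.43e-06), while the other receptor, Adipor1, differed by 0.05 (SE 0.07, adjusted p = 0.572). Ero1l and P4hb, which form disulphide bonds in the endoplasmic reticulum, were lower (-0.84 and -0.57), and Gstk1, known as DsbA-L and an aid to adiponectin assembly, was higher by 0.74. These last 3 were called in the same direction at 0 h already (-1.19, -0.55 and 0.48).

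Retn (XLOC_030966) lies on chromosome 8, at 3655770 to 3660110 on the plus strand of NCBIM37. On the log2(FPKM + 1) scale it showed the largest knockdown difference of the 7 genes at 48 h, whereas the ratio of group means was larger for Cfd (11.8 against 10.6). The siCon libraries at 48 h held 26.1, 14.6, 35.6 and 22.7 FPKM. The si14-3-3ζ libraries at 48 h held 0.265, 2.03, 1.199 and 5.85 FPKM. Every siCon library stood above every si14-3-3ζ library, and si14-3-3ζ replicate 4 was the highest of its group.

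The group means of Retn were 24.8 ± 8.70 and 2.33 ± 2.45 FPKM (SD, n = 4), so that the siCon mean was 10.6 times the other. The fitted difference was -3.16 (SE 0.42, adjusted p = 3.87e-06). In siCon cells Retn rose early. Its libraries held 0 to 0.901 FPKM at 0 h and 0.933 to 6.41 FPKM at 24 h, a rise of 1.60 (SE 0.42, adjusted p = 0.00202), and a further 2.59 was gained by 48 h (SE 0.42, adjusted p = 6.58e-05). In si14-3-3ζ cells the libraries held 0.156 to 0.415 FPKM at 0 h and 0.797 to 3.27 FPKM at 24 h, a change of 0.95 (SE 0.42, adjusted p = 0.0538). That change was called as a rise with a pseudocount of 0.1 (1.99, adjusted p = 0.0208), with quantile normalization (1.15, adjusted p = 0.017), in a fit of only the groups compared (adjusted p = 0.00534) and without si14-3-3ζ 24 h replicate 4 (1.11, adjusted p = 0.0414).

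At 24 h the knockdown difference of Retn was -0.71 (SE 0.42, adjusted p = 0.217), with overlapping libraries. From 0 to 48 h the rise in si14-3-3ζ cells was 1.08 (SE 0.42, adjusted p = 0.0317), against 4.19 in siCon cells (adjusted p = 9.26e-09). The rise in si14-3-3ζ cells lost its call without si14-3-3ζ 0 h replicate 2 or 4 (adjusted p = 0.0589 and 0.0666) and without si14-3-3ζ 48 h replicate 2 or 4 (0.0643 and 0.17). The last of these left a rise of 0.65. The responses to 48 h of induction differed between si14-3-3ζ and siCon cells by -3.11 (SE 0.59, adjusted p = 0.00117).

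Cfd (XLOC_002311) lies on chromosome 10, at 79353598 to 79355401 on the plus strand of NCBIM37, with 5 exons. Adipsin is the serine protease that cleaves factor B and so starts the amplification step of the alternative complement pathway. The siCon libraries of 48 h held 12.6, 6.05, 16.4 and 9.90 FPKM. The si14-3-3ζ libraries held 0.103, 1.01, 0.475 and 2.23 FPKM. The groups did not overlap, and the lowest siCon library again was replicate 2.

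The Cfd means were 11.2 ± 4.37 and 0.955 ± 0.928 FPKM (SD, n = 4), and the difference was -2.69 (SE 0.32, adjusted p = 1.11e-06). Cfd was close to 0 in all other groups, with means of 0.126 to 0.822 FPKM, 4 libraries listed at 0 and overlapping neighbours. In siCon cells Cfd rose late, by 2.77 from 24 to 48 h (SE 0.32, adjusted p = 1.12e-06), after a change of 0.18 from 0 to 24 h (adjusted p = 0.641). In si14-3-3ζ cells the change from 24 to 48 h was 0.69 (SE 0.32, adjusted p = 0.131), called without si14-3-3ζ 48 h replicate 1 at 0.93 (adjusted p = 0.0432). At 24 h the knockdown difference of -0.61 (adjusted p = 0.157) was called without siCon 24 h replicate 4, in which Cfd was listed at 0, at -0.87 (adjusted p = 0.0489). The responses to 48 h of induction differed by -2.54 between the 2 kinds of cell (SE 0.45, adjusted p = 0.000659).

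The other components of the alternative complement pathway were not lower at 48 h by the test. Of 11 such genes, 6 were tested, and at 48 h 1 was called higher and 0 lower in si14-3-3ζ cells, with a median of 0.04. C3, the central component, differed by 0.36 (adjusted p = 0.162), and Cfb, which encodes the substrate of adipsin, by 0.03 (adjusted p = 0.914). The Cfb locus carries C2 and Gm20547 as well. At 0 h, 2 of the 6 were called lower in si14-3-3ζ cells (9.16% of all loci), Cfb among them at -1.67 (SE 0.23, adjusted p = 3.28e-05). The 1 called higher at 48 h was Masp1, a protease gene with a product that can activate adipsin, by 0.79 (SE 0.21, adjusted p = 0.00362). Its symbol is listed at 2 loci, and only the first was read. In siCon cells 5 of the 6 fell between 0 and 48 h (35.7% of all loci), among them C3 (-1.48, SE 0.21) and Cfb (-1.77, SE 0.23), and 1, Cd55, rose by 1.10 (SE 0.27), beside 33.9% of all loci.

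Angptl4 (XLOC_013864) lies on chromosome 17, at 33910695 to 33918520 on the minus strand of NCBIM37, with 7 exons. The locus in the table carries the symbol 4931413I07Rik as well, so reads of the 2 genes cannot be told apart. Angptl4 was abundant in every group and was the only one of the 7 genes whose knockdown difference was called at 24 h. The siCon libraries at 24 h held 65.4, 47.3, 72.5 and 52.9 FPKM. The si14-3-3ζ libraries at 24 h held 27.9, 40.2, 34.3 and 37.4 FPKM. All 4 siCon libraries lay above all 4 si14-3-3ζ libraries.

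The means at 24 h were 59.5 ± 11.5 and 35.0 ± 5.28 FPKM (SD, n = 4), a difference of -0.74 (SE 0.22, adjusted p = 0.0137). Without siCon 24 h replicate 3 the difference was -0.64 (adjusted p = 0.0526), and without si14-3-3ζ 24 h replicate 1 it was also -0.64 (adjusted p = 0.0511). By 48 h Angptl4 stood at 93.7, 78.3, 109.8 and 89.1 FPKM in the siCon libraries and in the si14-3-3ζ libraries at 49.3, 35.9, 59.4 and 40.6 FPKM. These groups again did not overlap, and the difference was -1.001 (SE 0.22, adjusted p = 0.000795). At 0 h the difference was 0.16 (SE 0.22, adjusted p = 0.663), with ranges of 48.9 to 94.1 FPKM in siCon and 55.2 to 109 FPKM in si14-3-3ζ cells. Replicates 1 and 3 held more Angptl4 than replicates 2 and 4 in both kinds of cell at 0 h and at 48 h.

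Over the course of induction Angptl4 was called lower in si14-3-3ζ cells, and its change in siCon cells depended on the fit. In si14-3-3ζ cells it fell by 1.09 on the log2 scale from 0 to 24 h (SE 0.22, adjusted p = 0.000183) and was lower at 48 h than at 0 h (-0.71, SE 0.22, adjusted p = 0.00891). In siCon cells the change from 0 to 48 h was 0.46 (SE 0.22, adjusted p = 0.0671). It was called as a rise with the replicate number as a block (adjusted p = 0.0121), the fit in which libraries of the same number are compared, and without siCon 0 h replicate 3 (0.62, adjusted p = 0.0186). From 24 to 48 h the siCon cells gained 0.64 (SE 0.22, adjusted p = 0.0286), a call lost without siCon 24 h replicate 2 (0.0971) or 4 (0.0714) and without siCon 48 h replicate 1 (0.0542) or 3 (0.0869). The responses to 48 h differed by -1.16 (SE 0.31, adjusted p = 0.012).

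In the order of its group means Angptl4 ran from siCon 48 h through si14-3-3ζ 0 h, siCon 0 h, siCon 24 h and si14-3-3ζ 48 h to si14-3-3ζ 24 h, and each group overlapped its neighbour. Lpl, the lipase that Angptl4 inactivates, was lower in si14-3-3ζ cells at 48 h by -2.11 (SE 0.24, adjusted p = 7.31e-07). It was lower by about as much before induction (-1.87, adjusted p = 2.05e-05) and at 24 h (-1.81, adjusted p = 1.07e-05), and it fell in siCon cells over 48 h of induction (-1.24, SE 0.24, adjusted p = 0.000108). Of the 12 genes of lipoprotein lipase and its regulators, 7 were tested, with 2 called higher and 1 lower at 48 h. The higher ones were Furin (0.73, adjusted p = 4.76e-05), a protease that cleaves lipase and angiopoietin-like proteins, and Sel1l (0.31, adjusted p = 0.0266), which acts in the folding and exit of the lipase from the endoplasmic reticulum.

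Nampt (XLOC_006409) lies on chromosome 12, at 33505200 to 33538234 on the plus strand of NCBIM37, and overlaps Gdap10 in that annotation, so without a stated strand their reads may mix. Its enzyme makes nicotinamide mononucleotide in the salvage of NAD. Its expression followed the hours of induction and not the siRNA. The siCon libraries held 43.1, 44.1, 37.0 and 46.1 FPKM at 0 h. At 24 h they held 26.8, 23.6, 24.4 and 22.2 FPKM. By 48 h Nampt in the siCon libraries was back at 52.9, 33.3, 49.5 and 47.2 FPKM.

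The same dip and return of Nampt was seen in si14-3-3ζ cells, with means of 43.1 ± 3.70, 25.0 ± 1.79 and 45.7 ± 4.10 FPKM at 0, 24 and 48 h, next to 42.6 ± 3.91, 24.2 ± 1.93 and 45.7 ± 8.61 FPKM in siCon cells (SD, n = 4). No library of 24 h reached the lowest library of 0 or 48 h. The fall to 24 h was -0.79 in siCon cells (SE 0.11, adjusted p = 2.22e-06) and -0.76 in si14-3-3ζ cells (SE 0.11, adjusted p = 4.21e-06). The return to 48 h was 0.87 and 0.84 (adjusted p = 4.43e-06 and 7.28e-06). For knockdown the 48 h difference was 0.02 with a 95% interval of -0.21 to 0.25 (adjusted p = 0.911), and at 24 h it was 0.04 with an interval of -0.19 to 0.27 (adjusted p = 0.805). The response from 0 to 48 h differed between the 2 kinds of cell by 0.0003, with a 95% interval of -0.33 to 0.33. Without siCon 48 h replicate 2, the lowest of its group, the change from 0 to 48 h in siCon cells was called, at 0.23 (adjusted p = 0.0364) instead of 0.08 (adjusted p = 0.513).

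The 250 bases before the start of Nampt, the only one of the 7 genes that did not differ by siRNA at 48 h, are shown for comparison with those of Adipoq (chr12:32820085-32820334, plus strand, GRCm38.p6). Capitals mark AGGTCA, the core element that nuclear receptors bind.
Nampt: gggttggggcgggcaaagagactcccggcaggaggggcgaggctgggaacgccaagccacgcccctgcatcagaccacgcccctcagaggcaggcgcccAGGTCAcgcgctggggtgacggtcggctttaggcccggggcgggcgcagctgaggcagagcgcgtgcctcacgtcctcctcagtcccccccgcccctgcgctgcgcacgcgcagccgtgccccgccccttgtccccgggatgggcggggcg
G and C made up 76.3% of the 300-base window of Nampt, against 50% for Adipoq, 54.0% for Retn, 57.7% for Cfd and 65.0% for each arxes gene. AGGTCA on either strand was present in 16.3% of the 32851 windows. AGGTCA repeated after 1 base, the form of site bound by PPARγ with RXR, was found in 0.0396% of them. None of the 6 windows of these genes held it. TATAAA (13.6% of the 32851 windows), the C/EBP core TTGCNNAA (10.8%) and the glucocorticoid receptor element AGAACA (19.0%) were also absent from these 6 windows. Either strand was searched, and no match says only that these letters are missing there.

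Around Nampt, 8 of 15 genes of NAD salvage and use were tested, and at 48 h 1 was called higher and 1 lower in si14-3-3ζ cells. Sirt2, an NAD-dependent deacetylase, was higher by 0.57 (SE 0.11, adjusted p = 0.000256), and at 0 h already by 0.41 (adjusted p = 0.0129). Nnmt, which methylates nicotinamide, was lower at -0.70 (SE 0.19, adjusted p = 0.00408).

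Arxes2 (XLOC_035512) and Arxes1 (XLOC_035513) lie on the plus strand of chromosome X of NCBIM37, at 132528359 to 132529898 and at 132567906 to 132569485, with 1 exon each and 38007 bases between them. Their upstream sequence and their reading frame are the same. All 300 bases of their RefSeq promoter windows and all 543 bases of their coding sequences were identical. The 250 bases before the start are printed once, because they stand before both genes (chrX:136033117-136033366 for Arxes1 and chrX:135993570-135993819 for Arxes2, plus strand, GRCm38.p6). No base is in capitals, because the copies have no difference and hold none of the motifs searched.
Arxes1 and Arxes2: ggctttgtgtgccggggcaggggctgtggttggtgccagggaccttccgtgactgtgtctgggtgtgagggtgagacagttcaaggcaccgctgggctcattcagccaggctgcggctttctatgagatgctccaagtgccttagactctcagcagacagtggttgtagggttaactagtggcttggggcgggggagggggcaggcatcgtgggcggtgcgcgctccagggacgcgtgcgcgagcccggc
The GENCODE M1 transcripts of 1580 and 1540 bases share an unbroken run of 639 bases, at positions 60 to 698 of both. Outside that run they differ, and over the whole alignment 78.5% of 1453 aligned bases were identical, with 312 mismatched and 214 gapped positions. Of all 150-base windows of Arxes1, the length of 1 sequencing read, 34.2% occurred whole in Arxes2. How the reads of that run were divided between both loci is uncertain, and a level given to 1 gene may in part belong to the other.

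Most of the signal was assigned to Arxes2. In siCon cells at 48 h its libraries held 48.8, 29.6, 42.5 and 37.4 FPKM. In si14-3-3ζ cells at 48 h they held 4.50, 10.9, 7.29 and 11.7 FPKM. The groups lay far apart, with the lowest siCon library above the highest si14-3-3ζ library.

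The Arxes2 means were 39.6 ± 8.14 and 8.60 ± 3.34 FPKM (SD, n = 4), and the difference was -2.13 (SE 0.24, adjusted p = 5.36e-07). In siCon cells Arxes2 rose from 1.504 to 4.09 FPKM at 0 h to 3.01 to 5.97 FPKM at 24 h, by 0.79 (SE 0.24, adjusted p = 0.00656). By 48 h the rise over 0 h was 3.65 (SE 0.24, adjusted p = 9.7e-12). In si14-3-3ζ cells Arxes2 still rose, by 1.42 from 0 to 48 h (SE 0.24, adjusted p = 3.12e-05), with 1.03 gained between 24 and 48 h (adjusted p = 0.00312). The Arxes2 change from 0 to 24 h in these cells was 0.39 (SE 0.24, adjusted p = 0.165), called in a fit of only the groups compared (adjusted p = 0.0133). Its libraries at 48 h there lay above all 4 of 0 h and all 4 of 24 h. At 24 h the knockdown difference was -0.30 (SE 0.24, adjusted p = 0.364). The responses to 48 h differed by -2.23 (SE 0.34, adjusted p = 0.000143).

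Arxes1 was assigned far less signal. The 4 siCon libraries of 48 h held 3.66, 1.93, 1.67 and 2.84 FPKM. The si14-3-3ζ libraries held 0.283, 0.397, 0.590 and 1.09 FPKM. These groups did not overlap either, but outside siCon 48 h only 1 library reached 1 FPKM and 6 were listed at 0. Arxes1 therefore entered the test only through the group in which it was high. All its calls that use siCon cells at 48 h were bound to that.

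The means of Arxes1 were 2.52 ± 0.91 and 0.590 ± 0.358 FPKM (SD, n = 4), and the difference at 48 h was -1.14 (SE 0.18, adjusted p = 3.31e-05). It rose by 1.69 in siCon cells (SE 0.18, adjusted p = 2.99e-08) and by 0.56 in si14-3-3ζ cells (SE 0.18, adjusted p = 0.0121) from 0 to 48 h. The latter call was lost without si14-3-3ζ 48 h replicate 4 (0.42, adjusted p = 0.0618). From 0 to 24 h in si14-3-3ζ cells the change was 0.38 (SE 0.18, adjusted p = 0.0762), called with the replicate block (adjusted p = 0.0469). It was also called with a pseudocount of 0.1 (1.64, adjusted p = 0.0175), with quantile normalization (0.50, adjusted p = 0.0224) and in a fit of only the groups compared (adjusted p = 0.0372). The responses to 48 h differed by -1.13 (SE 0.26, adjusted p = 0.0044). This call and that of the rise in siCon cells use siCon cells at 48 h and were bound to the filter.

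**Figure D2:**
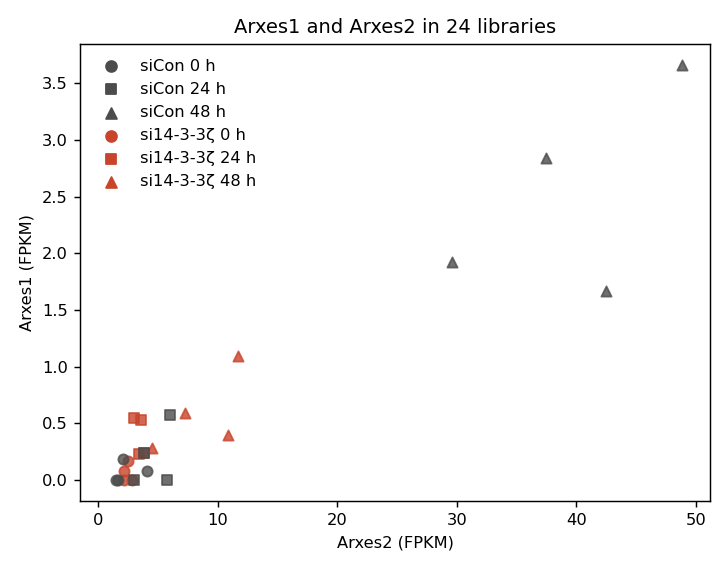
FPKM of Arxes1 against FPKM of Arxes2 in the 24 libraries (linear axes), with colour for the siRNA and shape for the hours of induction. The 4 siCon libraries of 48 h stand apart from the other 20, with 29.6 FPKM or more of Arxes2.

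Of the summed FPKM of the pair, Arxes1 took 5.98% ± 1.53 in siCon cells and 6.36% ± 2.18 in si14-3-3ζ cells at 48 h (SD, n = 4). In the other groups the share was less well measured, with means between 2.47% and 10.1% and libraries from 0 to 15.4%. Spcs3, the gene from which the pair arose, was at 37.8 ± 6.67 FPKM in siCon and 31.1 ± 2.26 FPKM in si14-3-3ζ cells at 48 h, a difference of -0.26 (SE 0.12, adjusted p = 0.0652). Of 5 genes of the signal peptidase complex 2 were tested, and Sec11c, a catalytic subunit, was lower at 48 h by -0.47 (SE 0.13, adjusted p = 0.00473).

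Over the course of induction the siCon cells gained expression of most of these genes. Of the 6 genes other than Arxes1, 2 were called higher and 1 lower between 0 and 24 h (30.8% and 33.4% of all loci), 4 higher between 0 and 48 h (33.9%) and all 6 higher between 24 and 48 h (13.3%). In si14-3-3ζ cells 2 of the 6, Angptl4 and Nampt, were lower between 0 and 24 h (31.9%). Between 0 and 48 h there, 2 were higher (26.5%), namely Retn and Arxes2, and 1 was lower (29.7%), namely Angptl4. Between 24 and 48 h 2, Nampt and Arxes2, were higher (9.18%).

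**Figure D3:**
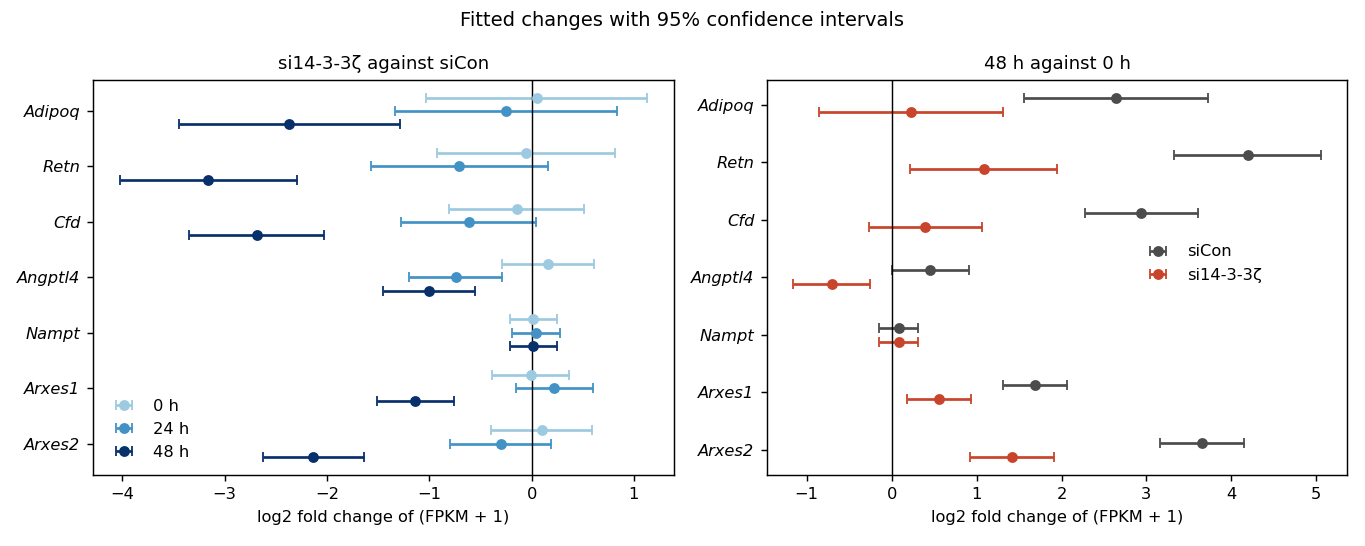
Left, log2 fold change of FPKM + 1 in si14-3-3ζ against siCon cells at 0, 24 and 48 h. Right, the same for 48 h compared with 0 h, separately for siCon and si14-3-3ζ cells. Points are limma estimates and bars their 95% confidence intervals. At 48 h the intervals of 6 genes lie below 0, that of Nampt runs from -0.21 to 0.25, and only the interval of Angptl4 in si14-3-3ζ cells lies below 0 on the right.

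The difference between the responses of the 2 kinds of cell from 0 to 48 h was called for 5 of the 6 genes other than Arxes1, all lower in si14-3-3ζ cells, beside 9.24% of all loci called lower. From 0 to 24 h it was called for none, beside 1.43% of all loci, and 1 gene, Angptl4, had an unadjusted p under 0.05 (-0.90, SE 0.31, adjusted p = 0.177). The comparisons of knockdown at 48 h, of induction and of responses share libraries, so they are not separate evidence. With a pseudocount of 0.1 in place of 1 the differences at 48 h grew, to -3.92 for Retn, -3.85 for Cfd, -2.97 for Adipoq and -1.995 for Arxes1, while the difference between responses was no longer called for Adipoq, Cfd and Arxes1 (adjusted p = 0.0608, 0.0603 and 0.0973).

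The libraries of a group at 48 h differed in the same order for many of the genes. Of the siCon libraries replicate 2 was the lowest for 6 of the 7, all but Arxes1, and of the si14-3-3ζ libraries replicate 1 was the lowest for 6 and replicate 4 the highest for 6, all but Angptl4. The summed FPKM of the 6 adipocyte markers (Fabp4, Plin1, Lipe, Cidec, Cd36 and Pnpla2) ranked likewise. They were 3346, 1219, 4333 and 1702 in the siCon libraries and 201, 435, 343 and 514 in the si14-3-3ζ libraries at 48 h. Most of this sum was Fabp4, with means at 48 h of 2173 of 2650 FPKM in siCon and 219 of 373 FPKM in si14-3-3ζ cells. All 6 markers were called lower in si14-3-3ζ cells at 48 h, from -0.85 for Pnpla2 to -3.27 for Cidec, and their part in the differences of the 7 genes was not tested. The Plin1 locus carries Pex11a as well.

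**Figure D4:**
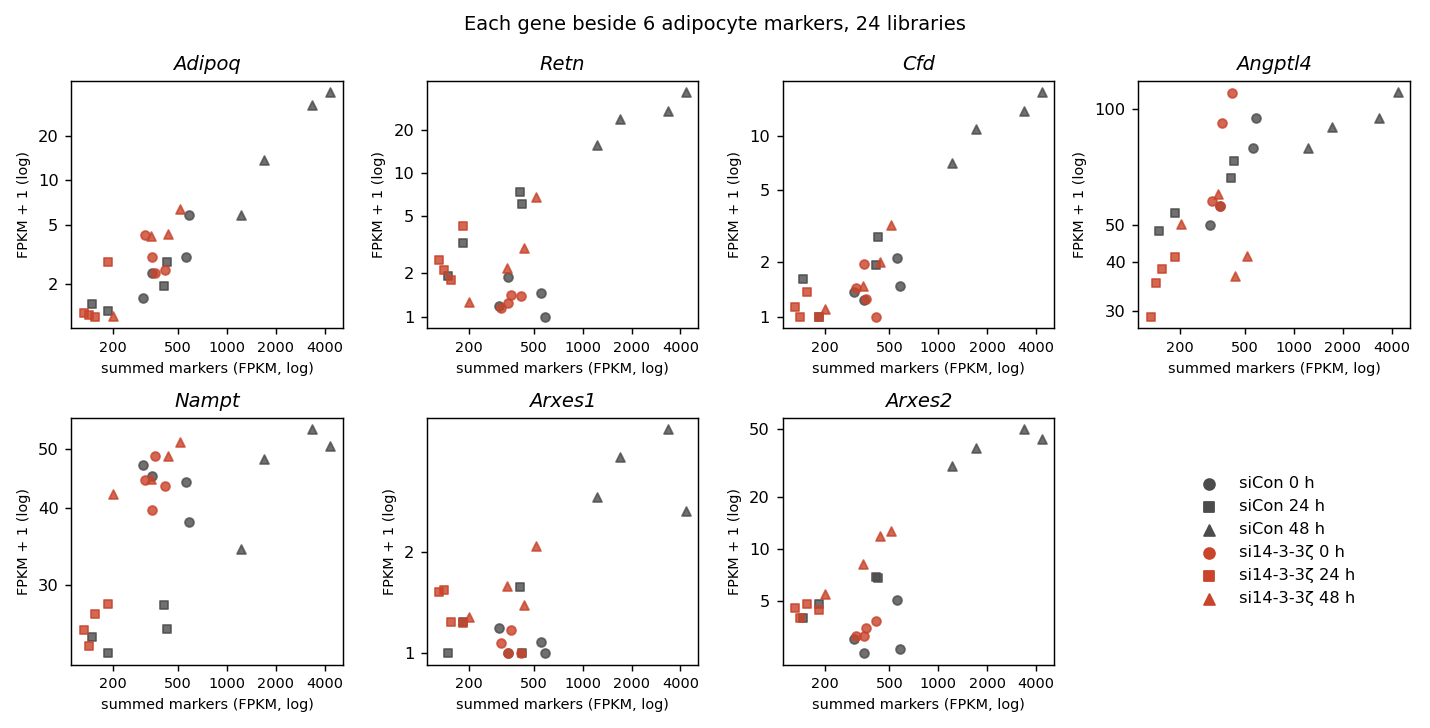
FPKM + 1 of each gene (log axis) against the summed FPKM of the 6 adipocyte markers (log axis) in the 24 libraries, with colour for the siRNA and shape for the hours of induction. The siCon libraries of 48 h lie at marker sums of 1219 and above, and all other libraries at 584 and below. Nampt at 24 h lies low in both kinds of cell.

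The pre-adipocyte markers moved both ways. Of the 6 tested, 2 were higher (Pdgfra and Pdgfrb) and 2 lower (Dlk1 and Thy1) in si14-3-3ζ cells at 48 h, and their sum ran from 1907 to 2887 FPKM in siCon and 1430 to 1695 FPKM in si14-3-3ζ cells. Cd14 and Lyz2 were both higher at 48 h (0.31 and 0.64), at sums of 5.25 to 6.60 and 7.54 to 10.1 FPKM, while the other 5 macrophage markers were not listed.

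Among the transcription factors known to act on these genes, 11 of 13 were tested, and at 48 h 4 were lower and 1 higher in si14-3-3ζ cells, with a median of -0.20. Cebpa was lower at -2.38 (SE 0.25, adjusted p = 2.96e-07) and Pparg at -1.39 (SE 0.21, adjusted p = 1.58e-05). Srebf1, a regulator of lipid synthesis, was lower at -0.60 (adjusted p = 0.0149) and E2f1, a cell cycle factor whose locus carries Necab3 as well, at -0.32 (adjusted p = 0.0225). Cebpd, an early factor of adipogenesis, was higher by 0.97 (SE 0.15, adjusted p = 2.78e-05). Nr3c1, the glucocorticoid receptor that dexamethasone binds, differed by 0.17 (adjusted p = 0.116).

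The genes of other proteins that fat cells secrete went in both directions. Of 32 such genes 19 were tested, with 7 lower and 2 higher at 48 h and a median of -0.33. Rarres2, which encodes the precursor of chemerin, was lower at -2.50 (SE 0.28, adjusted p = 4.76e-07), and at 0 h already at -1.77 (adjusted p = 0.000145). Agt, which encodes angiotensinogen, was lower at -1.82 (SE 0.33, adjusted p = 0.000146) and Apln, which encodes apelin, at -1.33 (SE 0.19, adjusted p = 9.88e-06). The higher ones were Grn, the gene of progranulin, by 0.71 (SE 0.08, adjusted p = 2.69e-07) and Lcn2, the gene of lipocalin 2, by 0.68 (SE 0.15, adjusted p = 0.00111). Lcn2 went the other way before induction, at -1.04 (SE 0.15, adjusted p = 8.94e-05).

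For each of the 7 genes the 3 loci most alike across the 24 libraries were taken by Pearson's r of log2(FPKM + 1), as a description over libraries that share their groups. For Arxes2 these were Cebpa (0.97), Acsl1 (0.96) and Acadm (0.96). For Retn they were Lipe (0.97), Mapk6 (0.96) and G0s2 (0.96), and for Cfd Itga7 (0.96), Fabp5 (0.96) and Tmem120a (0.96). Arxes1 was most like Cebpa (0.91), Fgf10 (0.91) and Car5b (0.90), and Adipoq most like Ppargc1b (0.93), Fgfrl1 (0.92) and Slc5a6 (0.92). The loci nearest to Angptl4 were less alike, with Tnks2 (0.82), Cd36 (0.82) and Trappc6b (0.80), and Nampt was closest to Aldh1a7 (0.90), Clca1 (0.88) and Psen2 (0.86).

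Among the 7 genes themselves, Arxes1 with Arxes2 (0.93), Retn with Arxes2 (0.92) and Cfd with Arxes2 (0.92) were the most alike pairs over the 24 libraries. How the reads shared by the arxes pair were divided is uncertain, and Arxes1 was low outside siCon cells at 48 h, which limits its coefficients. Adipoq went with Cfd at 0.89 and with Retn at 0.74. The coefficients of Angptl4 with the other 6 ran from 0.26 to 0.60, and those of Nampt from 0.14 for Retn to 0.62 for Adipoq.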

How the data were processed

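The labels gave 24 libraries of 3T3-L1 cells in 6 groups of 4. The authors sequenced 2 x 150 bp, aligned reads to NCBIM37 with TopHat2 2.0.11 and computed FPKM with Cufflinks 2.2.0 (the submitters' processing notes), and the deposited values were used as FPKM, although the header names no unit. The strand setting and the rule by which 9262 loci were listed are not given in the sources used here. All value columns were matched to a library.

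Loci with at least 1 FPKM in at least 4 libraries (9251, with all 7 genes) were fitted as log2(FPKM + 1) with limma 3.58.1 in R 4.3.3, using 1 mean per group and moderated variances with a trend, and adjusted by Benjamini-Hochberg over all of them. Contrasts compared si14-3-3ζ with siCon cells at every time, the times against each other in each kind of cell, and the difference between these responses. Depth is unknown without counts, so no count test was run. The fit was tested on simulated data with independent libraries and changes only in loci of higher mean level, so low genes were not covered. Named were the 7 genes, Ywhaz, the cell type markers and up to 4 tested genes of each list with the smallest adjusted p for knockdown at 48 h. Adipor1, Cfb, E2f1, Nr3c1, Agt and Lcn2 were named outside this rule, after their values were seen. A gene that the rule names is not reported here. Likeness names the 3 loci with the highest r, leaving out predicted genes and loci of several symbols. The 7 genes and all lists were chosen with earlier results of these data known.

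Libraries of the same replicate number deviated together, with every correlation over 0.1, for knockdown at 24 h (0.101 to 0.443), all 3 comparisons in siCon cells (lowest 0.179) and 0 to 24 h and 24 to 48 h in si14-3-3ζ cells (lowest 0.111). They were read as paired there, from the data alone. The main fit held no replicate term, so p-values given without naming the replicate block do not use this pairing. For knockdown at 0 and 48 h the lowest were 0.0839 and 0.0804, and for 0 to 48 h in si14-3-3ζ cells 0.0439. Sequences are RefSeq promoters of GRCm38.p6 for 6 of the 7 genes. Transcripts and positions are from GENCODE M1. Alternative analyses used quantile normalization or median-ratio scaling, a pseudocount of 0.1, a mean of at least 5 FPKM or no filter, no trend, a fit of only the groups compared, the replicate block, or all libraries but 1. Python 3.11.15, numpy 2.4.6, pandas 2.3.3, Biopython 1.88 and matplotlib 3.10.9 were used.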

Additional observations from a re-analysis of the deposited data

Results flagged for a closer look

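Of the 42 groups of 4 libraries (7 genes in 6 groups), 1 held a library far from the others by Dixon's test at 95%, where chance gives about 1 in 20 groups. It was Adipoq in si14-3-3ζ cells at 24 h, where replicate 2 held 1.80 FPKM and the other 3 held 0.199 to 0.264 FPKM. The response to 48 h of induction differed between si14-3-3ζ and siCon cells, by the test of the difference itself, for Retn (-3.11), Cfd (-2.54), Adipoq (-2.42), Arxes2 (-2.23), Angptl4 (-1.16) and Arxes1 (-1.13 on the log2 scale), the last of which passed the filter only through siCon cells at 48 h. Causes of these differences were not tested.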

How the results depend on the processing

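At 48 h Adipoq, Retn, Cfd, Angptl4 and Arxes2 kept their lower direction and their call in every alternative in which they were tested, leaving out any library included. Of 1322 recomputed values of single genes, 21 lost and 18 gained a call. Among counts of called genes, Arxes1 included, 0 to 24 h in si14-3-3ζ cells moved from 2 to 5 with a pseudocount of 0.1, to 4 with quantile normalization and to 6 in a fit of only the groups compared, and the difference of responses to 48 h from 6 to 3 with a pseudocount of 0.1. A mean of at least 5 FPKM left 3 called in place of 5 for 0 to 48 h in siCon cells, because Cfd and Arxes1 were not tested. With the replicate block, 1 gene in place of 0, Angptl4, differed in response to 24 h (adjusted p = 0.0225, libraries not paired there by the check), and the block changed no other call than those given above. Over fits without 1 library the count lay between 0 and 2 for knockdown at 24 h (1 with all libraries), and in si14-3-3ζ cells between 2 and 4 for 24 to 48 h (2 with all) and between 2 and 4 for 0 to 48 h (4 with all). Values that were not called changed sign 37 times. These were Retn at 0 h (0.12, pseudocount of 0.1), Arxes1 at 0 h (0.0024, quantile normalization), the Nampt difference of responses to 48 h (-9e-04, median-ratio scaling), and, without a library, knockdown at 0 h of Adipoq (-0.23 to 0.39), Angptl4 (-0.021 to 0.32), Arxes1 (-0.055 to 0.047), Arxes2 (-0.018 to 0.32), Cfd (-0.31 to 0.015), Nampt (-0.047 to 0.066) and Retn (-0.20 to 0.11), Nampt at 48 h (-0.12 to 0.093) and in its responses to 24 h (-0.024 to 0.090) and 48 h (-0.14 to 0.076), Cfd from 0 to 24 h in siCon cells (-0.054 to 0.43), and in si14-3-3ζ cells Adipoq from 0 to 48 h (-0.071 to 0.73) and Retn from 24 to 48 h (-0.31 to 0.51). The cause of these changes was not tested. Without read counts the error of a single low value is unknown, which limits Cfd, Arxes1 and Retn before 48 h most.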
